A study of Mus musculus with 2 samples.

Results

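The Eph receptors measured here are Epha3, Epha4, Epha5, Epha6, Epha7, Epha8, Epha10, Ephb1, Ephb2 and Ephb6, which were taken by name as 10 of the 30223 genes in the table of hippocampal cells. Epha1, Epha2, Ephb3 and Ephb4 were also in the table but were not included, and the highest level of these 4 over all cells of a library was 0.0713 per 10000, for Ephb3. Ephb4 was higher than this in endothelial-like cells, as given below. The cells came from wild-type mice and from mice homozygous for the Pigv341E knock-in, an edited allele of Pigv, which encodes a mannosyltransferase needed to build the glycosylphosphatidylinositol (GPI) anchor. Both groups were of strain C57Bl.6/J, and the age and sex of the mice were not given in the sources used here. For each genotype the 8 hippocampi of 4 mice were dissociated mechanically in the cold and combined into 1 droplet library (10x Genomics, version 3 chemistry), and both libraries shared a sequencing lane. With 1 pooled library per genotype there is no replicate check, genotype cannot be told apart from library, and every difference below is a description without a test. The expression values do not show the edited base, so they cannot check the genotype labels.

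Eph receptors are receptor tyrosine kinases of the cell surface that bind ephrins on neighbouring cells, and signals can pass into both cells. EphA receptors bind mainly the ephrin-A ligands, which are held in the membrane by a GPI anchor, and EphB receptors bind mainly the transmembrane ephrin-B ligands. In the hippocampus they are known for guiding axons to their target layers, for shaping dendritic spines and for contacts between neurons and astrocytes.

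There were 7094 wild-type and 8836 knock-in cells, and 28 cell barcodes occurred in both libraries. Values were depth-corrected whole numbers with a median total per cell of 8631 and 9608 and a median of 3122 and 3736 detected genes. Clustering without the Eph receptor and ephrin genes gave 33 clusters, of which 24 could be named from marker genes. Levels are given for 8 neuronal and 8 non-neuronal classes, which each had 20 or more cells per library. Median detected genes per cell ran from 2432 to 4286 in the wild-type neuronal classes and from 2217 to 2582 in the wild-type non-neuronal classes. No CA2, mossy or subiculum class could be named, and 2388 cells stayed in unnamed clusters. The subfield classes were named by their marker lists, so high sums of their own lists follow from the naming and are no separate check. The dentate granule list summed to 33.9 and 37.7 per 10000 in dentate granule-like cells, in the wild-type and knock-in library. Over all cells it summed to 13.1 and 12.5. The CA1 list summed to 39.3 and 40.1 in CA1-like cells against 14.1 and 14.7 over all cells, and the CA3 list to 47.1 and 52.9 in CA3-like cells against 8.40 and 9.45. Single genes gave much of some sums. Maml2 had 12.2 and 14.9 in dentate granule-like cells, and Pex5l 20.5 and 20.1 in CA1-like cells. The lists were not exclusive. The CA1 list also summed to 24.4 and 28.2 in oligodendrocyte-like cells, the dentate granule list to 23.4 and 24.8 in oligodendrocyte precursor-like and 20.6 and 18.7 in astrocyte-like cells, and the CA3 list to 17.4 and 16.8 in interneuron-like cells. CA3-like cells also carried the cortical deep layer list, at 34.9 and 36.4. In the fibroblast-like class the fibroblast list summed to 16.3 and 16.25, against 0.497 and 0.931 over all cells. The astrocyte list summed to 18.0 and 21.7 there and a thalamic list to 69.8 and 68.9. The cortical upper layer-like class was high in its markers Cux2, Mef2c and Cux1, while its markers Rorb, at 0.0 and 0.0229, and Rasgrf2, at 0.199 and 0.229, were below their levels over all cells, and a thalamic list summed to 55.8 and 57.8 there against 24.2 and 24.8 for its own list. Below, a level is the share that a gene takes of the summed values of a class, per 10000, and paired values give the wild-type library and then the knock-in library. Levels are compared between classes for 1 gene and not between genes. In pooled cells of a class, fewer cells with a transcript and less transcript per cell both lower the level.

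Among the receptors that reached 0.5 per 10000, Epha6, Epha3, Ephb1 and Ephb2 are those whose level differed most between the subfields, and the 250 bases before their transcription starts are shown because 1 of them was highest in CA1-like cells and the other 3 in CA3-like cells. The sequences are those of RefSeq on GRCm38.p6, all on the minus strand: chr16:60605532-60605781 for Epha6, chr16:63864176-63864425 for Epha3, chr9:102354694-102354943 for Ephb1 and chr4:136836013-136836262 for Ephb2. Capitals mark matches to the E-box CANNTG, the binding site of basic helix-loop-helix factors, and to the GC box GGGCGG on either strand. The TATA box TATAAA was also searched on both strands and is not in these 4 windows.
Epha6: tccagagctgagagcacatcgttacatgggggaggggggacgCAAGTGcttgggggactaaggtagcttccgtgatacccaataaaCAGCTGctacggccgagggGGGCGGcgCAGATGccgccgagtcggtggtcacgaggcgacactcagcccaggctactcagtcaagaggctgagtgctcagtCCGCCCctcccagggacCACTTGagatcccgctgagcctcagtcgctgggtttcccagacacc
Epha3: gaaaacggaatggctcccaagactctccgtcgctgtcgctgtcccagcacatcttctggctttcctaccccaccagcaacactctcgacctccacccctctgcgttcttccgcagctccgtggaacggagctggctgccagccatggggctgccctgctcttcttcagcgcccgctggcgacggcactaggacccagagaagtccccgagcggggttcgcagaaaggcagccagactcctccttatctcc
Ephb1: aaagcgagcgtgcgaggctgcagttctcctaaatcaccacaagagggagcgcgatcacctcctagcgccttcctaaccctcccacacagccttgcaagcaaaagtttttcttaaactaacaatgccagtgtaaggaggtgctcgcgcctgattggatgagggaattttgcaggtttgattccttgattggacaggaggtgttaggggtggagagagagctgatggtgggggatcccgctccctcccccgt
Ephb2: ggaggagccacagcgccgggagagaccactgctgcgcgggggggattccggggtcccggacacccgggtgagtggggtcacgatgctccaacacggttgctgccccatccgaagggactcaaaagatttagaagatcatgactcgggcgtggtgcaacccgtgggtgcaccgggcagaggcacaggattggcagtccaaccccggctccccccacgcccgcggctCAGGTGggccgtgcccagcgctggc
The Epha6 window held 4 E-box and 2 GC box matches, none of them overlapping, the Ephb2 window held 1 E-box match, and the Epha3 and Ephb1 windows held no match. Of 32851 windows of the same length, 66.2% held an E-box, 32.7% a GC box and 12.4% a TATA box. The share of G and C was 62.8% for Epha6 and for Epha3, 54.0% for Ephb1 and 68.4% for Ephb2, against a median of 52.4%. All 10 receptors had a RefSeq window. These matches describe letters and were not tied to any level below.

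The receptors fell into distinct patterns over the classes. Epha6 was highest in CA1-like and then CA3-like cells, Epha7 in dentate granule-like cells, Epha3 in Cajal-Retzius-like and CA3-like cells, and Epha4 in immature neuron-like cells. Ephb1 stood apart from the other receptors, with its highest level in oligodendrocyte-like cells and close to none in CA1-like cells. By the rule that the mean over the 8 neuronal classes was at least 2-fold the mean over the 8 non-neuronal classes in each library, 5 of the 8 receptors that reached 0.5 per 10000 in any class were enriched in neurons, against 14.5% of 8419 genes. They were Epha3, Epha6, Epha7, Epha10 and Ephb2. By the rule that the same subfield was highest in both libraries and at least 2-fold the lowest in both, 4 of those 8 differed between dentate granule-like, CA1-like and CA3-like cells, against 26.8% of 4542 genes. Of the 8 receptors, 1, Epha6, met this rule with CA1-like cells highest and 3 with CA3-like cells highest. The like shares of the 4542 genes were 7.35% and 7.68%. Among the 1216 genes that met the rule, CA1-like cells were highest for 334 and CA3-like cells for 349. For all 8 the highest subfield was the same in both libraries, as it was for 86.7% of genes. Epha8 and Ephb6 did not reach 0.5 per 10000 in any class. Of the 4 receptors not included, only Ephb4 reached it, with endothelial-like cells highest in both libraries. Its neuronal mean was 0.0744-fold and 0.0762-fold the non-neuronal mean, and it is not among the 8.

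**Figure D1:**
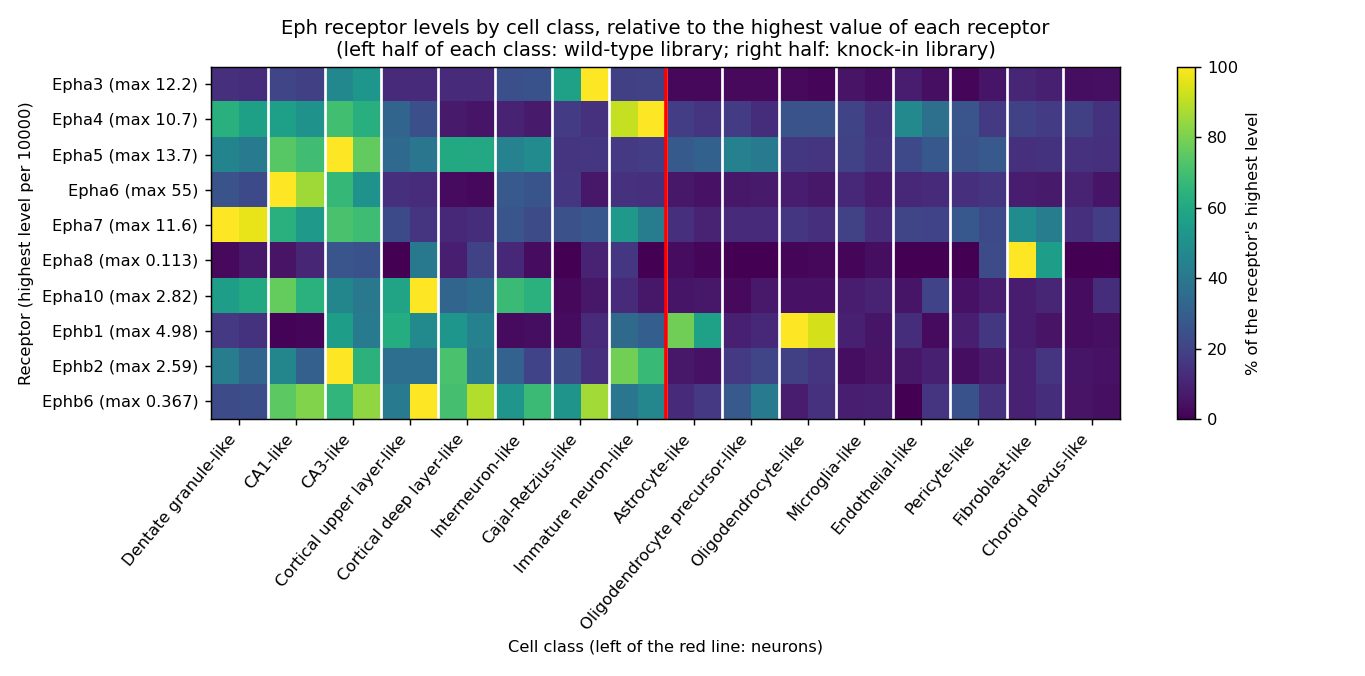
Levels of the 10 receptors (rows) in the 16 cell classes (columns), each as a percentage of that receptor's highest level, with the wild-type library in the left column of each class and the knock-in library in the right one; neuronal classes lie left of the red line. Epha6 is brightest in CA1-like cells, Epha7 in dentate granule-like cells and Ephb1 right of the line in oligodendrocyte-like cells, and the rows of Epha8 and Ephb6 are scaled to very low maxima of 0.113 and 0.367 per 10000.

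Epha6, an EphA receptor, lies at chr16:59653483-60605531 on the minus strand of GRCm38 and spans 952.0 kb. Its level was 55.04 and 47.3 per 10000 in CA1-like cells, 36.7 and 28.3 in CA3-like cells and 14.1 and 12.3 in dentate granule-like cells. The order CA1, CA3, dentate gyrus was the same in both libraries, and the 2 libraries of each subfield did not overlap those of the next. CA1-like cells were 3.91-fold and 3.83-fold above dentate granule-like cells, and CA3-like cells 2.60-fold and 2.30-fold above them. The CA1 class itself was uneven, because it joined 2 clusters. In the cluster led by Galntl6 and Fibcd1, with 688 and 683 cells, the Epha6 level was 60.2 and 56.7 per 10000. In the cluster led by Pde11a and Dcn, with 140 and 304 cells, it was 29.8 and 26.3. The second cluster thus lay near the CA3-like cells and near the unnamed cluster led by Fn1, at 32.6 and 29.5, which was left unnamed because it carried markers of both subiculum and CA1. The cluster led by Pde11a made up 140 of 828 wild-type and 304 of 987 knock-in CA1-like cells.

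Outside the hippocampal principal cells, interneuron-like cells had an Epha6 level of 15.3 and 14.2 per 10000, just above the dentate granule-like cells. The lowest level of any class was in the neurons of the cortical deep layer-like class, at 1.54 and 1.22, below every non-neuronal class. Cells with a value of at least 2 made up 32.4% and 18.4% of that class and 99.9% and 99.9% of CA1-like cells. A 952.0 kb gene can overlap others: 4930547E14Rik and Gm9017 lie on the opposite strand within Epha6 and are also in the table. Whether the authors' counting used strand is not given in the sources used here, so reads of these genes and of Epha6 cannot be told apart.

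Epha3, at chr16:63543534-63864175 on the minus strand, is an EphA receptor known from axon guidance. Its highest level was 6.98 and 12.2 per 10000 in Cajal-Retzius-like cells, the reelin-producing neurons of the outermost layer. CA3-like cells followed with 5.66 and 6.39 and interneuron-like cells with 2.98 and 3.06. CA1-like cells had 2.52 and 2.30 and dentate granule-like cells 1.70 and 1.61, so CA3-like cells exceeded dentate granule-like cells 3.33-fold and 3.97-fold. These 5 classes kept their order in both libraries. Of the unnamed clusters, that led by Lef1 and Otx2os1 had 6.24 and 3.21 per 10000 and that led by Pdzrn3 and Unc5d 4.07 and 2.81, whereas that led by Fn1, high in Epha6, had 0.340 and 0.223. Among the non-neuronal classes fibroblast-like cells had the highest Epha3 level, 1.32 and 1.05, and astrocyte-like cells had 0.269 and 0.267. The unnamed cluster led by Slc47a1, a gene of the fibroblast list, had 0.556 and 0.494.

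Epha5, at chr5:84054761-84417382 on the minus strand, is an EphA receptor known for roles in axon guidance and at synapses. Its level was 13.7 and 10.45 per 10000 in CA3-like cells, 10.2 and 9.52 in CA1-like cells and 6.22 and 5.66 in dentate granule-like cells. CA3-like cells were 2.21-fold and 1.85-fold above dentate granule-like cells, so the knock-in library missed the 2-fold rule. The unnamed clusters led by Fn1, with 15.9 and 13.1, and by Vwc2l and Cntn6, with 14.4 and 12.7, lay above every named class of the same library. The cortical deep layer-like class had 8.33 and 8.27, close to the CA1-like cells, in contrast to its low Epha6. The spread within CA3-like cells was wide: the quartiles of the values per cell were 5.75 and 20 in the wild-type library and 3 and 16 in the knock-in library.

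Epha7, at chr4:28813131-28967499 on the plus strand, is an EphA receptor with known roles in cortical development and dendrite growth. Over the pooled classes it had the opposite subfield order to Epha6. The level was 11.6 and 11.2 per 10000 in dentate granule-like cells, 8.26 and 7.99 in CA3-like cells and 7.34 and 6.23 in CA1-like cells. Dentate granule-like cells were 1.58-fold and 1.79-fold above CA1-like cells, below the 2-fold rule. Within CA1 the 2 clusters differed more than the subfields did: 8.32 and 8.04 in the cluster led by Galntl6 and 2.50 and 2.21 in the cluster led by Pde11a. The cluster led by Galntl6, with 688 and 683 cells, lay just above the CA3-like cells in both libraries. CA3-like cells were thus above CA1-like cells only with the 2 clusters pooled. Immature neuron-like cells had 6.22 and 4.91 and overlapped fibroblast-like cells, which had 5.63 and 4.84. The unnamed cluster led by Slc47a1 had 1.77 and 2.02.

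Epha4, at chr1:77367185-77515088 on the minus strand, can bind ephrins of both classes and is known for its part in spine retraction on hippocampal neurons in contact with astrocytes. Its highest level was in immature neuron-like cells, 9.79 and 10.7 per 10000. The 3 subfields were close, with 7.46 and 6.77 in CA3-like cells, 6.81 and 6.08 in dentate granule-like cells and 6.04 and 5.53 in CA1-like cells. CA3-like and dentate granule-like cells overlapped between the libraries, and the highest subfield was only 1.23-fold and 1.22-fold above the lowest. The low classes were neurons too: interneuron-like cells had 1.07 and 0.782 and cortical deep layer-like cells 0.778 and 0.591, below all 8 non-neuronal classes. The neuronal mean was therefore only 1.79-fold and 2.09-fold the non-neuronal mean, and Epha4 did not meet the rule for enrichment in neurons. As with Epha6 and Epha7, the CA1 cluster led by Pde11a was lower, 3.87 and 3.66 against 6.48 and 6.36 in the cluster led by Galntl6.

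Epha10, at chr4:124880899-124917800 on the plus strand, is a receptor whose kinase domain lacks activity. It was higher in neurons, with a mean over the neuronal classes 8.23-fold and 4.78-fold the non-neuronal mean. The levels were 2.15 and 1.80 per 10000 in CA1-like cells, 1.92 and 1.80 in interneuron-like cells, 1.58 and 1.71 in dentate granule-like cells and 1.29 and 1.12 in CA3-like cells. CA1-like and interneuron-like cells overlapped between libraries. The cortical upper layer-like class, with 20 and 44 cells, had 1.65 and 2.82, the highest level of any class in the knock-in library. Cajal-Retzius-like cells, with 0.0571 and 0.181, and immature neuron-like cells, with 0.343 and 0.184, were neurons with levels like those of non-neuronal classes. The Fn1-led cluster was high again, at 3.10 and 2.68, and the CA1 cluster led by Pde11a was low, at 0.887 and 0.622. Epha8, at chr4:136929419-136956816 on the minus strand, had a value above 0 in 218 of 15930 cells, and 91.7% of these values were 1. Its highest level in a named class was 0.113 and 0.0632 in fibroblast-like cells, and the unnamed cluster led by Lef1 and Otx2os1, which carried thalamic and interneuron markers, had 0.189 and 0.181.

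Ephb1, at chr9:101922128-102354693 on the minus strand, is an EphB receptor known for axon crossing and for clustering of receptors at synapses. It had the widest contrast between subfields. The level was 2.80 and 2.04 per 10000 in CA3-like cells, 0.833 and 0.725 in dentate granule-like cells and 0.0576 and 0.0592 in CA1-like cells. CA3-like cells thus exceeded CA1-like cells 48.6-fold and 34.5-fold. Values of at least 2 occurred in 48.5% of wild-type CA3-like cells (exact Clopper-Pearson 95% interval 43.1 to 54.0) and in 38.5% of knock-in ones (33.6 to 43.5). In CA1-like cells the share was 0.362% (0.0748 to 1.06) and 0.608% (0.223 to 1.32), below the 4.74% and 5.58% in microglia-like cells. These intervals cover counting error in cells only. With each cell thinned to a total of 1000, values above 0 remained in 22.6% and 19.5% of CA3-like, 0.483% and 0.810% of CA1-like and 3.11% and 1.86% of microglia-like cells. Both CA1 clusters were low, with 0.0413 and 0.0473 in the one led by Galntl6 and 0.137 and 0.0856 in the one led by Pde11a. Interneuron-like cells were low too, at 0.152 and 0.184, whereas the cortical upper layer-like class had 3.09 and 2.39 and the deep layer-like class 2.62 and 2.19.

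Among the named classes the highest Ephb1 levels were outside neurons. Oligodendrocyte-like cells had 4.98 and 4.67 per 10000 and astrocyte-like cells 3.91 and 2.84, and the neuronal mean was 1.00-fold and 0.988-fold the non-neuronal mean. The unnamed Lef1-led cluster had 3.72 and 2.96, in the knock-in library above the astrocyte-like cells. In oligodendrocyte-like cells 74.2% (71.9 to 76.4) and 75.5% (73.2 to 77.7) had a value of at least 2. Within the oligodendrocyte lineage the level was uneven. Oligodendrocyte precursor-like cells had 0.446 and 0.576, and the small cluster led by Prom1 and Cldn14 had 11.8 and 11.4 over 30 and 21 cells. The cluster led by Anln and Enpp6 had 6.09 and 6.04, the cluster led by Pde8a and Pde4b 4.20 and 3.89, and the cluster led by Cryab and Mal 3.02 and 2.67. The 4 clusters kept this order in both libraries. A further 6 genes on the opposite strand within Ephb1 were also in the table, so part of this signal cannot be told apart from theirs without strand. The same holds for Epha7, overlapped on the opposite strand by Gm11915, and for Epha10, overlapped by 1700125G02Rik.

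Ephb2, at chr4:136647539-136835988 on the minus strand, is an EphB receptor that binds and clusters NMDA receptors at excitatory synapses. Its level was 2.59 and 1.67 per 10000 in CA3-like cells, 1.19 and 0.792 in CA1-like cells and 1.09 and 0.843 in dentate granule-like cells. CA3-like cells were 2.37-fold and 1.98-fold above dentate granule-like cells and 2.18-fold and 2.10-fold above CA1-like cells. Immature neuron-like cells had 2.04 and 1.76 and overlapped the CA3-like cells. The neuronal mean was 6.05-fold and 3.75-fold the non-neuronal mean. Ephb6, at chr6:41605482-41620509 on the plus strand, is like Epha10 a receptor without kinase activity. Its level was 0.274 and 0.298 in CA1-like cells, 0.242 and 0.306 in CA3-like cells and 0.0857 and 0.0874 in dentate granule-like cells. Of its values above 0, 89.1% were 1, a value that in a depth-corrected table need not be an observed molecule.

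**Figure D2:**
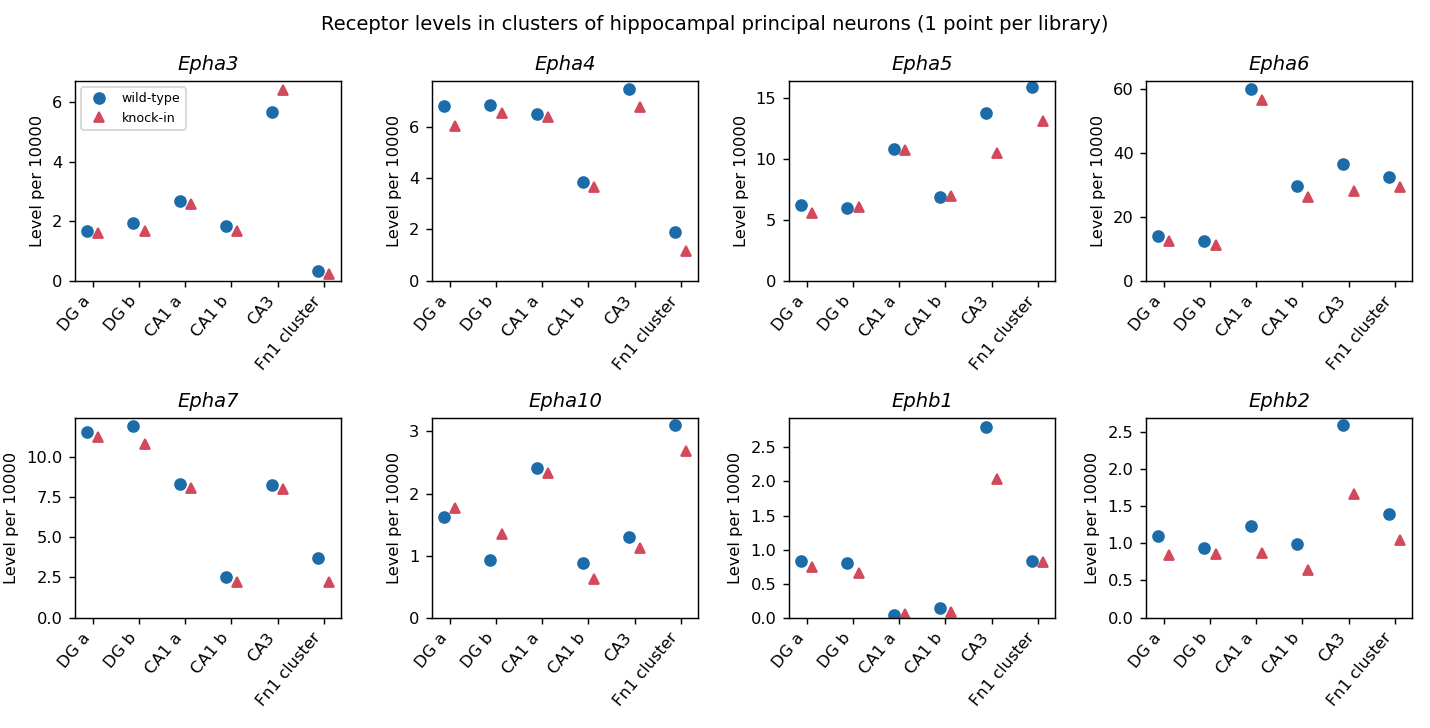
Levels per 10000 of the 8 receptors above 0.5 per 10000 in clusters of hippocampal principal neurons, 1 circle per wild-type and 1 triangle per knock-in library; DG a and DG b are the dentate granule-like clusters led by Trpc6 and by C1ql2, CA1 a and CA1 b the CA1-like clusters led by Galntl6 and by Pde11a, CA3 the CA3-like cluster and Fn1 cluster an unnamed one. Epha6 peaks in CA1 a at 60.2 and 56.7, Epha7 in the dentate clusters, and Ephb1, Ephb2 and Epha3 in CA3; in both libraries 7 receptors are lower in CA1 b than in CA1 a, and Ephb1 is higher.

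Epha6 and Ephb1 were the most opposed pair. Over the 31 clusters with at least 50 cells, Pearson's r of log2(level + 0.1) between them was -0.27, the lowest of the 28 pairs among the 8 receptors. The 31 points share 2 libraries and their depth, so r is a description. With both libraries summed, r with Ephb1 ran from -0.27 to 0.082, and Ephb1 with Ephb2 gave 0.124 and 0.107 within the libraries. The highest pair, Epha5 and Epha10, gave 0.793. Single cells of the principal classes carried several receptors: the median number of receptors with a value of at least 2 was 6 in CA3-like cells of both libraries, 5 in CA1-like and dentate granule-like cells and 1 in choroid plexus-like cells.

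**Figure D3:**
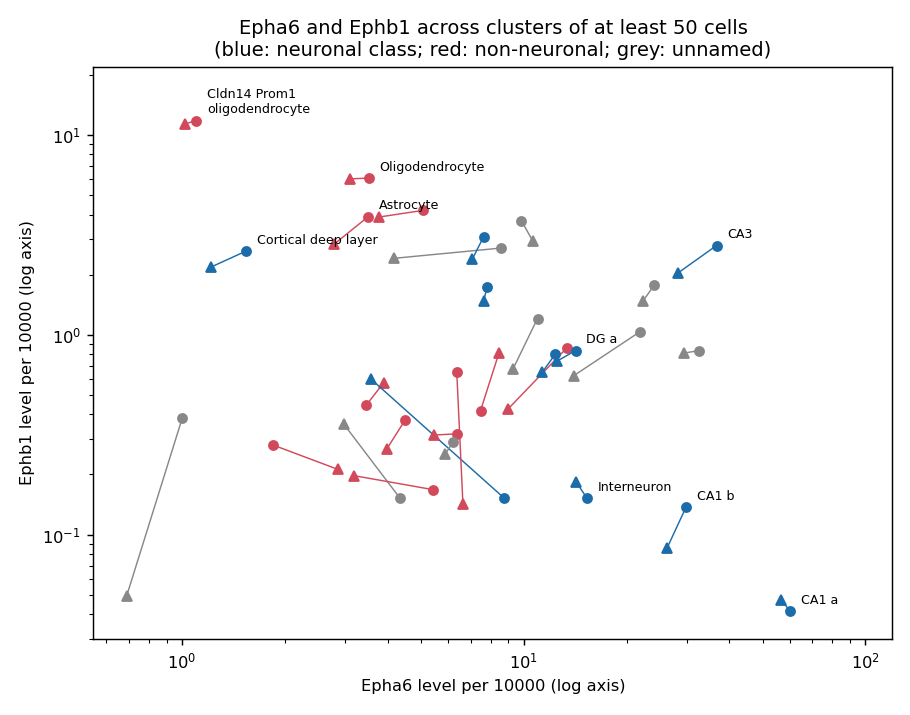
Level of Epha6 (x axis) against that of Ephb1 (y axis), both per 10000 on log axes, in each cluster of at least 50 cells, with a line joining the wild-type (circle) and knock-in (triangle) library of a cluster. The CA1-like clusters CA1 a (led by Galntl6) and CA1 b (led by Pde11a) lie at the lower right, the oligodendrocyte-like clusters at the upper left with up to 11.8 for Ephb1, and the CA3-like cluster is high for both.

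The genes most like each receptor over the same 31 clusters were ranked among 6148 genes. Epha6 was closest to 4930547E14Rik (r = 0.94), the gene that overlaps it on the other strand, and then to the cation channel genes Trpc5 (0.882) and Trpc4 (0.878). Epha5 was closest to the glutamate receptor gene Grm5 (0.94), Csmd1 (0.926) and Stxbp5l (0.919), and Epha10 to Cacng3 (0.936), the chloride transporter gene Slc12a5 (0.926) and Gm44562 (0.918). Epha3 was closest to the Slit receptor gene Robo2 (0.88), 5330417C22Rik (0.861) and Clstn2 (0.85), and Ephb2 to Glt1d1 (0.896), Ap3b2 (0.888) and Mast1 (0.881). Epha7 followed Galnt17 (0.885), Camk2b (0.883) and Kcnj6 (0.867). The closest genes of Ephb1 and Epha4 were less alike: Pcdh9 (0.773), Gm48967 (0.749) and Kndc1 (0.737) for Ephb1, and Cerkl (0.754), Slit3 (0.751) and Fam19a1 (0.745) for Epha4.

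Every non-neuronal class had some signal of neuronal genes, so the receptor levels there are given beside 8 neuronal transcripts (Snap25, Syt1, Slc17a7, Camk2a, Grin2b, Rbfox3, Celf4 and Meg3). In microglia-like cells these 8 stood at 0.400 to 0.855 of their level over all cells in the wild-type library and at 0.337 to 0.639 in the knock-in library. Epha6 in microglia-like cells stood at 0.367 and 0.333, Epha5 at 0.438 and 0.371 and Epha7 at 0.429 and 0.339. None of the receptors was above all 8 neuronal transcripts in microglia-like cells in both libraries, and none in the endothelial-like, pericyte-like and choroid plexus-like classes. The shares of all genes above all 8 in both libraries were 46.9% in microglia-like, 14.6% in endothelial-like, 38.8% in pericyte-like and 24.1% in choroid plexus-like cells. The part of free neuronal transcripts in these levels was not tested.

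Among the 8 receptors that reached 0.5 per 10000, 7 receptor and class pairs stood above all 8 neuronal transcripts in both libraries, in 4 non-neuronal classes. Below that level, Epha8 in fibroblast-like cells, at 9.05 and 3.23, and Ephb6 in oligodendrocyte precursor-like cells, at 0.857 and 1.00, did so too and were not counted. In oligodendrocyte-like cells Ephb1 was at 2.64 and 3.09 of its level over all cells and Epha4 at 0.649 and 0.777, against at most 0.608 and 0.604 for the neuronal transcripts. In astrocyte-like cells Ephb1 was at 2.07 and 1.88 and Epha5 at 0.645 and 0.766, against at most 0.478 and 0.463. In oligodendrocyte precursor-like cells Epha5 was at 1.00 and 1.02, against at most 0.565 and 0.614, with a level of 6.05 and 5.67 per 10000 that lay in the range of the dentate granule-like cells. In fibroblast-like cells Epha7 was at 1.07 and 1.10 and Epha3 at 0.798 and 0.641, against at most 0.522 and 0.615. These are shares that many genes reach: 51.7% of all genes were above the 8 transcripts in oligodendrocyte-like, 69.5% in astrocyte-like, 59.0% in oligodendrocyte precursor-like and 64.0% in fibroblast-like cells. Epha4 in endothelial-like cells, at 5.06 and 3.97 per 10000 over 25 and 44 cells, was above the neuronal transcripts in the wild-type library (1.20 against at most 1.11) and within them in the knock-in library (1.12 against at most 1.43).

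**Figure D4:**
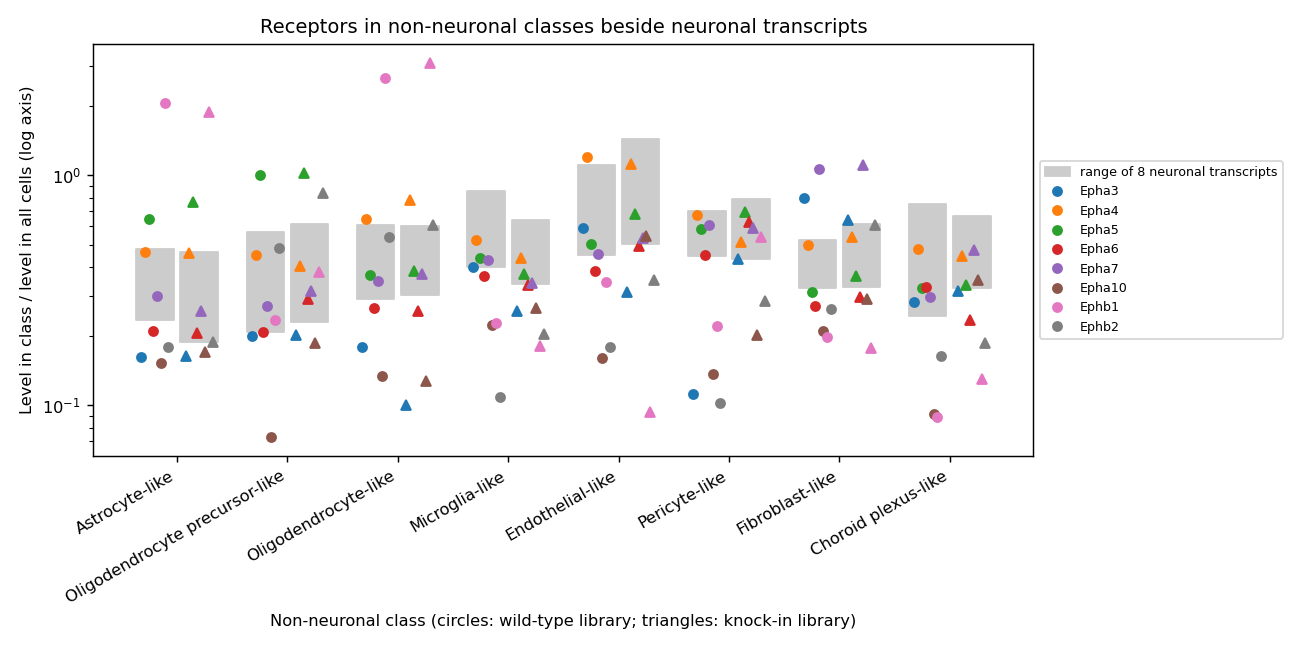
Level of 8 receptors in each non-neuronal class divided by the level over all cells of the same library (log axis), with wild-type values as circles and knock-in values as triangles, beside grey bars that span the 8 neuronal transcripts. Ephb1 stands above the bars in astrocyte-like and oligodendrocyte-like cells, at 1.88 to 3.09, and Epha5 in astrocyte-like and oligodendrocyte precursor-like cells.

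Between the libraries most receptors above the level limits were lower in the knock-in, by less than 2-fold. Of 130 pairs of a receptor and a class with at least 50 cells in each library, 74 had a level of at least 1 per 10000 and at least 10% of cells above 0 in 1 of the libraries. Of these 74 pairs, 57 were lower and 17 higher in the knock-in library, while of all genes that met the same limits 51.0% to 72.8% were lower, depending on the class, with a median log2 ratio between -0.104 and -0.00982. Over all 130 pairs, 77 were lower and 51 higher, so the pairs under the limits were higher more often than lower. Among them Ephb6 was higher in 12 of 13 classes, with 89.1% of its values above 0 at 1. The share over all genes under the limits was not computed, so these counts have no background. The knock-in library had more detected genes per cell, a median of 3736 against 3122. The part of this in the low levels was not tested. Only Epha6 in Cajal-Retzius-like cells passed 2-fold, against 1.63% of genes in that class. In the other 12 classes 0 receptors passed, against 0.302% of genes in dentate granule-like, 0.745% in CA1-like, 1.2% in CA3-like, 1.43% in cortical deep layer-like, 0.534% in interneuron-like and 1.23% in immature neuron-like cells. Among the non-neuronal classes the shares were 0.741% in astrocyte-like, 0.399% in oligodendrocyte precursor-like, 0.457% in oligodendrocyte-like, 0.37% in microglia-like, 0.634% in fibroblast-like and 1.44% in choroid plexus-like cells. The Epha6 level in Cajal-Retzius-like cells was 8.77 and 3.58 per 10000, a log2 ratio of -1.27, over 62 and 103 cells. The median Epha6 value per cell there was 3 and 2, and the upper quartile 7 and 4. In the same cells the Cajal-Retzius marker list summed to 91.3 and 118 per 10000, the CA1 list to 5.19 and 4.83, the CA3 list to 5.57 and 4.98 and the subiculum list to 4.32 and 2.88. The dentate granule list summed to 8.62 and 9.91 there, and 0% and 3.88% of the cells were called doublets. The part of other cells' transcripts and of doublets was not tested. Epha3 moved the other way in these cells, from 6.98 to 12.2, a log2 ratio of 0.793 that did not pass 2-fold.

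Ephb2 was lower in the knock-in library in 5 of the 5 classes that met the limits, with log2 ratios from -0.748 in cortical deep layer-like cells to -0.202 in immature neuron-like cells. Dentate granule-like and CA1-like cells met the limits only through the wild-type library, so the limits fixed the direction there. Over all 13 classes, limits set aside, Ephb2 was lower in 10 and higher in 3. In CA3-like cells, which met the limits in both libraries, its ratio was -0.606, below the 5th percentile of all genes compared there (-0.358). In CA1-like and dentate granule-like cells it was -0.529 and -0.337, against 5th percentiles of -0.295 and -0.24. As the limits fixed the direction in these classes, their place among all genes is no separate support. Of the CA3-like cells, 66.5% and 44.4% had an Ephb2 value of at least 2. Among the pairs within the limits, Ephb1 was lower in 5 of 5 classes, from -0.445 in astrocyte-like cells to -0.0925 in oligodendrocyte-like cells, and Epha6 in 12 of 13, the exception being oligodendrocyte precursor-like cells at 0.164. Epha4 was lower in 10 of 12, Epha7 in 10 of 13, Epha5 in 8 of 13, Epha3 in 4 of 8 and Epha10 in 3 of 5. These counts stand beside the 51.0% to 72.8% of all genes that were lower. Over all 13 classes, limits set aside, Epha10 was higher in 8, again without a share over all genes. In choroid plexus-like cells, at 0.0933 and 0.365 per 10000, the Epha10 ratio was 1.27. In microglia-like cells all 4 receptors that met the limits were lower, with ratios of -0.579 to -0.343, and the range of the neuronal transcripts given above was lower there as well. That class joined 3 clusters in unequal shares, and the direction did not hold in the largest. In the cluster led by P2ry12 and Cx3cr1, with 257 and 411 cells, Epha6 was at 1.84 and 2.86 per 10000, Epha5 at 0.705 and 0.981, Epha4 at 0.611 and 0.675 and Epha7 at 0.660 and 0.662. In the cluster led by Cst3 and Tyrobp, with 178 and 115 cells, Epha6 was at 13.4 and 8.98, and in that led by Inpp5d, with 240 and 334 cells, at 6.39 and 5.45. Whether the receptors differ from other genes in this was not tested.

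**Figure D5:**
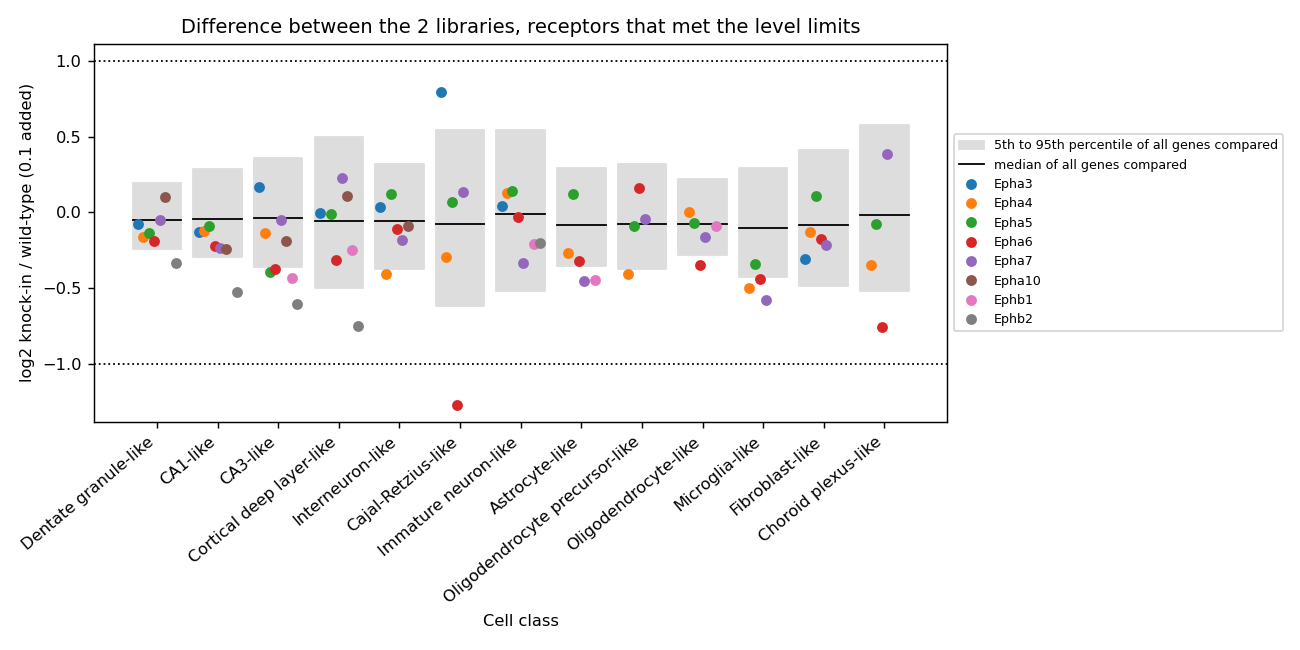
Log2 ratio of knock-in over wild-type level, with 0.1 added to both, of each receptor that met the level limits in each of 13 classes (points), beside the 5th to 95th percentile of all genes compared in the class (grey bars), their median (black line) and the 2-fold limits (dotted lines). Epha6 in Cajal-Retzius-like cells, at -1.27, is the only point past the dotted lines, and Ephb2 lies below the grey bar in 4 of its 5 classes. Of these 4, dentate granule-like and CA1-like cells met the limits only through the wild-type library, which fixed the direction there.

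The ligands and signalling partners of the receptors were described with the same rules from a list of 41 genes. Of 8 ephrins, 3 reached 0.5 per 10000 in any class, and 1, the GPI-anchored Efna5, was enriched in neurons, against 14.5% of all genes. Both ephrins that reached the level in a subfield, Efna5 and Efnb2, differed between subfields, against 26.8% of all genes. Efna5 was highest in interneuron-like cells, at 5.18 and 4.57 per 10000. In the subfields Efna5 had 0.793 and 1.10 in CA3-like, 0.568 and 0.595 in dentate granule-like and 0.208 and 0.357 in CA1-like cells. The transmembrane Efnb2 had the reverse pattern, with 0.508 and 0.502 in CA1-like cells, 0.145 and 0.191 in dentate granule-like cells and 0.119 and 0.122 in CA3-like cells. Efnb3, also transmembrane, reached 1.35 and 1.37 in oligodendrocyte-like cells, the class with the most Ephb1. Of 33 partners and effectors, 29 reached the level, 4 were enriched in neurons (Tiam1, Kalrn, Src and Grip1), and 5 of 24 differed between subfields. Both shares are at or below the background of 14.5% and 26.8% of all genes. With 15 principal components Efna5 and Src no longer met the neuronal rule, and with values of 1 set to 0 Src did not. Tiam1, an exchange factor for Rac, had 8.00 and 7.32 in dentate granule-like cells and 0.322 and 0.391 in CA3-like cells.

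Of the 19 pathway genes that met the limits over all cells, 1 passed 2-fold between the libraries, against 0.289% of 2075 genes. The list was chosen with earlier results of these data known, so this count cannot be weighed against that share. The gene past 2-fold was Abl1, a tyrosine kinase that acts downstream of Eph receptors, with 8.995 and 1.29 per 10000. Its log2 ratio of -2.71 over all cells compares with -0.254 for the median of the 7 receptors that met the limits there. Abl1 was past 2-fold in all 13 classes, from -1.51 in microglia-like to -4.69 in CA3-like cells. In CA3-like cells, where 7 of 8 receptors were lower in the knock-in library, the receptors' median was -0.279, against -0.0371 for all genes, of which 57.2% were lower. Over the classes the receptors' median ran from -0.467 in microglia-like cells, where Abl1 differed least, to 0.0686 in Cajal-Retzius-like cells. It was -0.219 in CA1-like cells, where the Abl1 ratio was -3.62. The CA1 class joined 2 clusters in unequal shares, 140 of 828 and 304 of 987 cells being in that led by Pde11a. In the larger, led by Galntl6, Epha6 was at 60.2 and 56.7 per 10000, Epha5 at 10.8 and 10.7 and Epha4 at 6.48 and 6.36. There Epha7 was at 8.32 and 8.04, Epha3 at 2.67 and 2.59, Epha10 at 2.41 and 2.33 and Ephb2 at 1.23 and 0.862. The part of the cluster shares in the class ratios was not tested. Whether the receptors and Abl1 change together was not tested.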

How the data were processed

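The authors deposited 1 table of 30223 genes by 15930 cells. The deposited values are whole numbers, named a score here: from their narrow range of totals per cell, 4846 to 14500, they were taken as corrected for depth by the authors before deposit, a step no source used here describes. Per the submitters' processing notes, Seurat 3.0.0 and the build GRCm38 were used. The aligner, the filter on cells and the use of strand in counting are not given in the sources used here. The depth of sequencing is unknown, so no count model was fitted.

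Cells were scaled to 10000, log-transformed and clustered with scanpy 1.11.5 (2000 variable genes without Eph receptors, ephrins and sex-linked genes, 30 principal components, 15 neighbours, Leiden resolution 1). Markers were counted in a cluster if detected in 25% or more of the cells at 1.5-fold or more of the level elsewhere. Clusters took the class with most markers, at least 3, and stayed unnamed when leading genes or markers of another class competed. The naming rule was chosen with the clusters in view, and names end in "-like". Doublets were kept. By Scrublet, 61 cells (0.860%) of the control library and 209 (2.37%) of the mutant library were doublets. Log2 ratios had 0.1 added to both levels. Only the rule for the difference between the libraries was run on simulated data, for CA1-like and Cajal-Retzius-like cells. The neuronal and subfield rules were not simulated.

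Genes named are the 10 receptors, the 3 genes most like each receptor with at least 1 per 10000 in a class, and genes of the pathway list past the size rule. Ephrins and partners given by value for their subfield or class pattern were chosen after their values were seen. The receptors and gene lists were chosen with earlier results of these data known. Gene positions are those of GENCODE M21, matched by symbol for all 10 receptors.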

Additional observations from a re-analysis of the deposited data

How the results depend on the processing

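No paired analysis was possible because each genotype is 1 library, and for the same reason no replicate could be left out. The alternatives changed the clustering resolution, the number of principal components, the use of Eph genes as clustering features, doublets, a filter on cells, the weight of cells, thinning to a total of 1000, the fold rule, the added constant and the level filter. Further choices were added after seeing the data: setting values of 1 to 0 and dropping the limit on markers of another class. With a 1.5-fold rule 7 receptors differed between subfields in place of 4 (Epha5, Epha7 and Epha10 added), against 42.8% of genes. Thinning and a 3-fold rule each left 3, without Ephb2, and resolution 2 added Epha5. The receptors enriched in neurons numbered 4 to 7: Epha4 and Epha5 were added with 15 principal components, with a 1.5-fold rule and with values of 1 set to 0, Epha5 with doublets left out and Epha4 with thinning, and Epha7 was lost with thinning and with a 3-fold rule. With no level filter, or one of 0.2 per 10000, 3 receptor and class pairs passed 2-fold between the libraries in place of 1, adding Ephb1 in Cajal-Retzius-like cells and Epha10 in choroid plexus-like cells. With a 3-fold rule 1 pathway gene, Grip1, was enriched in neurons in place of 5, and with 15 principal components Nck2 and Cttn replaced Efna5 and Src. Pairs above the neuronal transcripts numbered 7 to 9. With values of 1 set to 0, Epha4 in oligodendrocyte-like cells was lost and Ephb2 in oligodendrocyte precursor-like and oligodendrocyte-like cells was added. Of 131 alternative values of 14 single results, none reversed and 31 moved. The Epha6 ratio in Cajal-Retzius-like cells ranged from -1.29 to -1.09, and the log2 ratio of Ephb1 in CA3-like over CA1-like cells, 5.33 as the mean of the libraries, from 4.54 to 7.30. With 15 principal components the cortical, immature neuron, endothelial and pericyte classes could not be named. For Epha8 and Ephb6 the values above 0 were mostly 1, and the part of depth in this was not tested.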
